A study of Mus musculus with 12 samples.

Results

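RNA of mouse embryonic fibroblasts homozygous for the L allele of Rb1 (L/L) was compared with RNA of the wild-type fibroblasts matched to them (Rb1 +/+, titled L1 to L3). The comparison used the 6 arrays whose titles name these 2 groups, 3 per group, out of 12 in the series. The other 6 arrays hold a second Rb1 mutant, S/S, and the wild type matched to it, and they enter below only where the L/L difference is set against the S/S difference. Each group consisted of embryonic fibroblasts grown in 10% serum until passage 4 and then held in 0.1% serum for 72 h, so arrest by serum starvation is common to wild type and mutant. The platform was the Affymetrix Mouse Gene 1.0 ST array, and each value is a log2 level normalized by the robust multi-array average (RMA). The labels do not say what the L allele changes in the protein, whether replicates are separate embryos or cultures, or how the wild type was matched. The p-values therefore measure only the spread among these samples. Each group held male and female patterns (below), so its arrays did not all come from 1 embryo. Arrays 2 and 3 of a group may still be technical replicates. For each of 19938 genes 1 probe set was tested.

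Rb1 encodes the retinoblastoma protein, the founding pocket protein. In resting cells it binds E2F transcription factors and recruits chromatin-modifying complexes to their targets, and it is released when cyclin-dependent kinases phosphorylate it on entry into S phase. E2F targets include the genes that license replication origins, run the replication fork and make deoxynucleotides, while genes of mitosis are held down in resting cells by the related DREAM complex and switched on later in the cycle.

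The 6 arrays were alike in scale. Log2 medians ran from 6.92 to 6.97, interquartile ranges from 3.42 to 3.53, and each pair correlated at 0.992 to 0.996 over all genes. Xist, the RNA that silences an X chromosome in female cells, was 5.06 in wild-type array 1 and 5.41 in L/L array 1, and 11.20 to 11.43 in the other 4 arrays. The Y-linked gene Eif2s3y showed the reverse, at 9.14 and 9.09 in the arrays numbered 1 and at 3.83 to 3.98 in the others. Both arrays numbered 1 thus had a male pattern and the other 4 a female pattern, with 1 male array in each group. The Y-linked genes Eif2s3y, Uty and Kdm5d, which have no target in female cells, read 3.83 to 5.17 in the 4 female arrays. Xist in the male arrays, at 5.06 and 5.41, reached above that range. The 11 fibroblast markers averaged 11.73 to 12.02 in wild-type cells and 11.67 to 11.81 in L/L. Of these, 9 had a lower mean in L/L. In 5 of them the 3 L/L arrays lay below the 3 wild-type arrays (5.10% of all genes), and in 0 above. Among the markers Vim, an intermediate filament gene of mesenchymal cells, lay between 13.26 and 13.41 in all 6 arrays. The 20 macrophage and blood cell markers varied widely between arrays of a group, with mean levels of 7.23 to 8.95 in wild-type cells and 6.90 to 8.24 in L/L. The lysosomal macrophage marker Cd68 was 8.67, 9.79 and 11.27 in wild-type arrays 1 to 3 and 8.18, 10.18 and 10.52 in L/L arrays 1 to 3, so the groups overlapped on it.

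Rb1 RNA was present in every array. It was 9.23, 9.05 and 8.61 in wild-type cells and 9.39, 9.36 and 9.23 in L/L. The highest wild-type array equalled the lowest L/L array to 2 decimals. The difference of 0.36 (SE 0.15) had an adjusted p of 0.522 and did not pass. It was 0.18 without wild-type array 3, 0.50 without wild-type array 1 and 0.46 without both arrays numbered 1.

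A small set of genes rose in L/L, led by a nucleobase transporter and a histone chaperone. Of the 19938 genes, 5 passed at an adjusted p under 0.05 (0.0251%), all 5 of them higher in L/L and 0 lower. At an unadjusted p under 0.05 limma gave 1262 genes higher (6.33%) and 531 lower (2.66%). The L/L difference was above 0 in 55.9% of all genes and below 0 in 44.1%. Slc43a3 (Entrez 58207) encodes a purine nucleobase transporter of the plasma membrane. It was 9.46, 9.28 and 9.33 in wild-type cells and 10.55, 10.51 and 10.58 in L/L. Every L/L array lay above every wild-type array, and the gap between the groups exceeded the spread within either. The means of 9.36 ± 0.09 (SD, n = 3) and 10.55 ± 0.03 (SD, n = 3) differ 2.28-fold (log2 1.19, SE 0.07, limma adjusted p = 0.00293). Dnajc9 (Entrez 108671) encodes a heat shock co-chaperone that handles histones H3 and H4. It was 8.61, 8.78 and 8.83 in wild-type cells and 9.85, 9.88 and 9.83 in L/L. The L/L arrays were close to each other and lay well above each wild-type array. The rise from 8.74 ± 0.12 (SD, n = 3) to 9.85 ± 0.03 (SD, n = 3) was 2.17-fold (log2 1.12, SE 0.08, adjusted p = 0.0043).

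The other 3 genes rose by less. Bves (Entrez 23828), a Popeye-domain gene whose membrane protein binds cyclic AMP, was 7.93, 8.03 and 7.94 in wild-type cells and 9.02, 8.80 and 8.96 in L/L. Its rise was 1.94-fold (0.96, SE 0.08, adjusted p = 0.00868). Phyhip (Entrez 105653), named for its binding to the peroxisomal enzyme phytanoyl-CoA hydroxylase, was 6.97, 6.82 and 6.90 in wild-type cells and 7.70, 7.76 and 7.73 in L/L. It rose 1.78-fold (0.83, SE 0.07, adjusted p = 0.00868). B3galnt1 (Entrez 26879) encodes the glycosyltransferase that makes globoside, a neutral glycosphingolipid. Its values were 8.67, 8.75 and 8.73 in wild-type cells and 9.43, 9.53 and 9.46 in L/L, a rise of 1.68-fold (0.75, SE 0.06, adjusted p = 0.00894). None of these 5 genes had a wild-type and an L/L array that overlapped.

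With both arrays numbered 1 left out, 3 of 19938 genes passed (0.0150%). This count rested on single arrays, since it was 120 when wild-type array 2 was dropped too, 9 for wild-type array 3 and 5 for either L/L array. Slc43a3 rose by 1.24 on the log2 scale in the 4 female arrays (adjusted p = 0.0453, range over all alternatives 0.000131 to 0.0453). Dnajc9 rose by 1.05 (adjusted p = 0.0467, range over all alternatives 0.00274 to 1). The third was St14, the gene of the membrane serine protease matriptase, at 1.12 (adjusted p = 0.0467, range 0.0128 to 0.327). St14 was 8.0, 7.62 and 7.67 in wild-type cells and 8.57, 8.82 and 8.69 in L/L, so the male wild-type array was the highest of its group and the male L/L array the lowest of its own. Its 6-array difference of 0.93 (SE 0.12) had an adjusted p of 0.0586. Bves (0.89), Phyhip (0.89) and B3galnt1 (0.75) had much the same differences in the female arrays as in all 6, with adjusted p-values of 0.161, 0.105 and 0.161. Over the alternatives tried those p-values ran from 0.00185 to 0.179 for Bves, from 0.00863 to 0.409 for Phyhip and from 0.00891 to 0.409 for B3galnt1.

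Single arrays decided how many genes passed. The count was 6 without wild-type array 1, 1 without wild-type array 2, 19 without wild-type array 3 and 2 without L/L array 1, and dropping either of the other L/L arrays, 2 or 3, gave 3. Slc43a3 passed in all 6 of these fits and Dnajc9 in 5, failing without wild-type array 2. Bves passed in 3, and Phyhip and B3galnt1 in 2, which were the fits lacking wild-type array 1 or 3. The 19 genes that passed without wild-type array 3 held the 5 named above, and the other 14 were Mcm6, Mcm2, Mcm7, Prim1, Chaf1b, Cdk2, Rrm2, Dnmt1, Wdhd1, Syce2, Nsg1, Nmral1, Idh2 and Nrm.

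**Figure D1:**
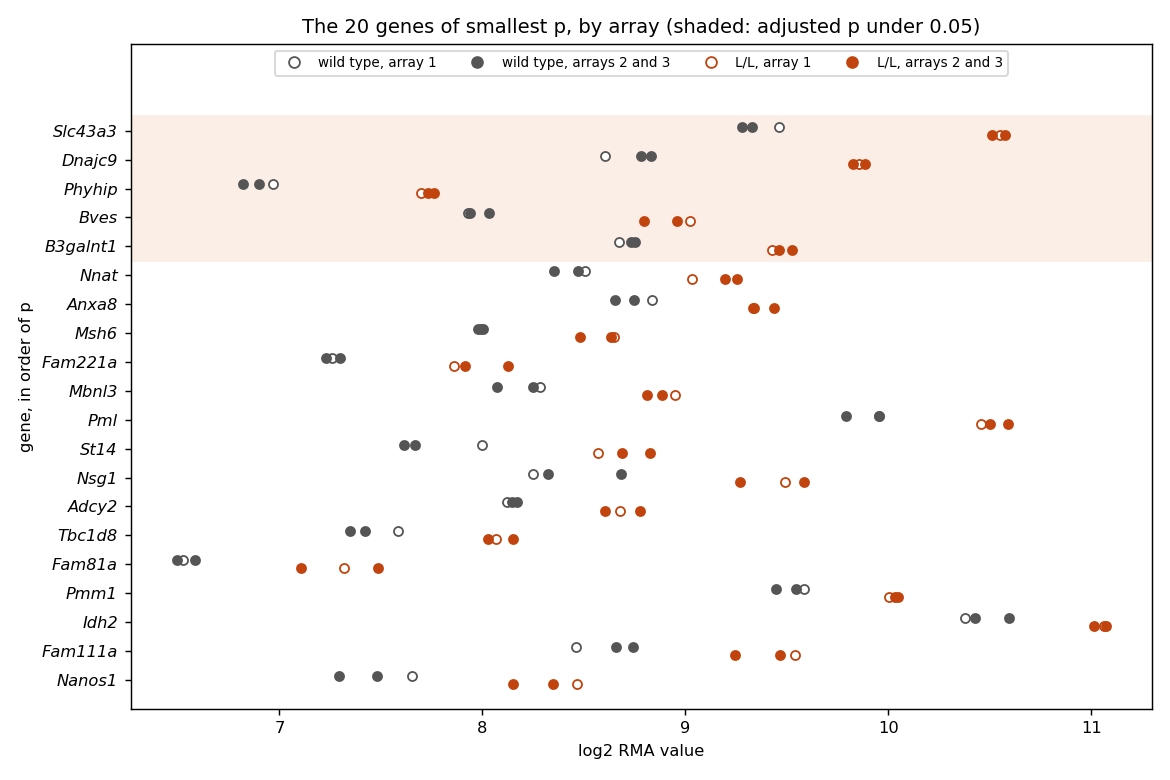
Log2 RMA value (horizontal axis) of the 20 genes of smallest p (vertical axis, in order of p) in each of the 6 arrays; open points are the male arrays numbered 1 and filled points the female arrays. Shading marks the 5 genes that passed, and in all 20 genes the 3 L/L points (orange) lie to the right of the 3 wild-type points (grey).

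The 15 genes next in order of p did not pass and are given as values. With the male or female pattern of each array as a covariate 7 genes passed, the same 5 and 2 of these 15, Nanos1 (adjusted p = 0.0271, against 0.0725 without the covariate) and Mbnl3 (0.0447, against 0.0527). Their adjusted p-values ran from 0.0527 to 0.0725, their L/L differences were all above 0, and none of them had overlapping groups. Over all genes, 1936 (9.71%) had 3 L/L arrays above 3 wild-type arrays and 1016 (5.10%) had them below. Msh6, which recognises mismatched bases after replication, was 7.99, 8.0 and 7.98 in wild-type cells and 8.65, 8.63 and 8.48 in L/L (0.59). Pml, which builds nuclear bodies, was 9.95, 9.95 and 9.79 in wild-type cells and 10.46, 10.59 and 10.50 in L/L (0.62). Nsg1, an endosomal protein of neurons, was 8.25, 8.32 and 8.68 in wild-type cells and 9.49, 9.27 and 9.58 in L/L (1.03, the largest of the 15). Among metabolic enzymes in this set, the mitochondrial isocitrate dehydrogenase gene Idh2 had a difference of 0.58 and the phosphomannomutase gene Pmm1 one of 0.50. Among signalling and RNA-binding genes, the adenylyl cyclase gene Adcy2 had 0.54, the splicing regulator Mbnl3 0.68, and the translational repressor Nanos1 0.85. Fam111a, a protease that acts at replication forks, had 0.80. The imprinted gene Nnat had 0.72 and the annexin gene Anxa8 0.63, followed by Fam221a (0.70), Tbc1d8 (0.63) and Fam81a (0.77).

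Of the 10 largest positive differences among genes with non-overlapping groups and an L/L mean of at least 6, 7 did not pass. They belonged to Mcm6 (1.17), Prim1 (1.15), Alkal1 (1.07), Nsg1 (1.03), Mlkl (0.98), Crip1 (0.97) and Chaf1b (0.95), of which 3 are replication genes. Mcm6 is a subunit of the replicative DNA helicase, Prim1 the catalytic subunit of primase, and Chaf1b a subunit of the assembly factor that loads histones behind the fork. Promoter stretches of these 3 genes and of Dnajc9, the chaperone gene that rose, are shown because E2F sites lie upstream of many replication genes. They are from RefSeq on build GRCm38.p6, written 5′ to 3′ on the gene's strand, with capitals for 4 E2F words on either strand. These words are TTGGCGC, the near variant spelled TTCCCGC, the other near variant spelled TTGCCGC, and a last one spelled TTCGCGC. Their matches overlap within Mcm6. The Mcm6 stretch (chr1:128359706-128359825, minus strand) is the 120 bases before the start, Prim1 (chr10:128015155-128015214, plus strand) and Dnajc9 (chr14:20388911-20388970, minus strand) show the 60 bases before it, and Chaf1b (chr16:93883651-93883710, plus strand) shows bases 250 to 191 before it.
Mcm6: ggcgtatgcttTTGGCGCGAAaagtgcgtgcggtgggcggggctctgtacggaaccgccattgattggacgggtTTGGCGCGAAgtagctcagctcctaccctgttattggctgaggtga
Prim1: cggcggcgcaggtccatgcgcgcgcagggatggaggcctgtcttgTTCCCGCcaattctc
Chaf1b: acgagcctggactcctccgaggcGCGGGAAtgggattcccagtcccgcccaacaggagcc
Dnajc9: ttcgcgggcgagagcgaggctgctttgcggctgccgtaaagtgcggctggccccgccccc
In the 250 bases before the start, Mcm6 held 4 matches, Prim1 1, Chaf1b 1 and Dnajc9 0. Of 15563 measured genes with a promoter in the table, 1910 (12.3%) held at least 1 such word on either strand. The share was 8 of 17 (47.1%) among the origin licensing genes described next, 14 of 34 (41.2%) among replication fork genes, 7 of 22 (31.8%) among nucleotide synthesis genes and 7 of 45 (15.6%) among mitosis genes. It was 8 of 18 (44.4%) among heterochromatin genes and 4 of 11 (36.4%) among Polycomb repressive complex 2 genes. Their median L/L differences were 0.03 and 0.05. At an unadjusted p under 0.05, 1 of the 18 and 4 of the 11 were higher (6.33% of all genes were). A relation between E2F words and L/L differences was not tested. Of the 20 genes of smallest p, 15 had a promoter in the table and 2 of those, Mbnl3 and Pmm1, held an E2F word (13.3%). A match is a description of the letters and not evidence of binding.

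Origin licensing factors load the helicase at origins before S phase. None of the 19 measured passed, while 9 were higher (6.33% of all genes were) and 0 lower (2.66%) at an unadjusted p under 0.05. Their median difference was 0.27, against 0.02 over all genes. In 10 of the 19 the 3 L/L arrays lay above the 3 wild-type arrays (9.71% of all genes), and in 1 below (5.10%). Mcm6 was 7.44, 7.77 and 8.31 in wild-type cells and 8.99, 9.01 and 9.03 in L/L. The L/L arrays were nearly equal while the wild-type arrays spanned almost 1 log2 unit. The difference of 1.17 (SE 0.19, adjusted p = 0.128) was 1.55 between the male arrays and 0.99 between the female arrays. The origin recognition gene Orc1 was 5.99, 5.92 and 5.97 in wild-type cells and 6.63, 6.35 and 6.44 in L/L (0.52, adjusted p = 0.128). Mcm2 (0.69) and Mcm7 (0.68), which sit in the same helicase ring as Mcm6, also had groups without overlap. The other 3 subunits, given here to complete the ring, had differences of 0.65 for Mcm3, 0.54 for Mcm4 and 0.34 for Mcm5. Mcm5 was 8.15, 8.54 and 9.04 in wild-type cells and 8.87, 8.89 and 8.99 in L/L, so its groups overlapped through wild-type array 3.

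Replication fork genes, which unwind, copy and repackage DNA, all lay on the positive side. None of the 41 measured passed. All 41 had an L/L difference above 0 (55.9% of all genes did), from 0.08 to 1.15 with a median of 0.34. Of them 29 were higher (6.33% of all genes) and 0 lower (2.66%) at an unadjusted p under 0.05. In 24 the 3 L/L arrays lay above the 3 wild-type arrays (9.71% of all genes). Prim1 was 6.71, 7.18 and 7.55 in wild-type cells and 8.29, 8.16 and 8.43 in L/L (1.15, SE 0.19, adjusted p = 0.134). Chaf1b was 8.03, 8.12 and 8.69 in wild-type cells and 9.25, 9.16 and 9.26 in L/L (0.95, SE 0.16, adjusted p = 0.141). In both genes wild-type array 3 came nearest to the L/L arrays. The clamp loader gene Rfc2 (0.48) and Pola2, the accessory subunit of DNA polymerase alpha (0.44), had the other small p-values of the list. The mean level of the list, relative to the mean of 6 arrays, was -0.37, -0.22 and 0.03 in wild-type arrays 1 to 3 and 0.19, 0.18 and 0.19 in L/L. Licensing genes were at -0.29, -0.19 and 0.01 in wild type and at 0.19, 0.12 and 0.16 in L/L. The replication lists had a wider range among wild-type arrays than among L/L arrays, and in wild-type array 3 they approached the L/L level. Without wild-type array 3 the median difference was 0.44 for fork genes and 0.31 for licensing genes, and without wild-type array 1 it was 0.24 and 0.15. Without both arrays numbered 1 it was 0.25 and 0.18, with 39 of 41 fork genes above 0, and 26 of them had 2 L/L arrays above 2 wild-type arrays (22.6% of all genes did).

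Nucleotide synthesis genes supply deoxynucleotides for the fork. None of the 22 measured passed, and 20 had a difference above 0 (55.9% of all genes did). Of them 15 were higher (6.33% of all genes) and 0 lower (2.66%) at an unadjusted p under 0.05. In 14 the 3 L/L arrays lay above the 3 wild-type arrays (9.71% of all genes). The ribonucleotide reductase subunit genes Rrm1 and Rrm2 had differences of 0.56 and 0.59. Rrm1 was 10.15, 10.05 and 10.45 in wild-type cells and 10.86, 10.73 and 10.73 in L/L. Dtymk, the thymidylate kinase gene, had a difference of 0.44 and Adsl, an enzyme of purine synthesis, one of 0.38. The list median was 0.25 in 6 arrays, 0.27 in the female arrays and 0.24 between the male arrays. These medians were close, but with 1 male array in each group sex and single arrays cannot be told apart.

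Genes of recombination and repair included some of the larger differences. None of 25 passed, and 9 were higher at an unadjusted p under 0.05 (6.33% of all genes were). The median was 0.12. It was 0.26 between the male arrays and 0.08 in the female arrays, where 19 of 25 lay above 0. Chek1, the kinase of the replication checkpoint, was 7.47, 7.46 and 7.64 in wild-type cells and 8.54, 8.52 and 8.10 in L/L (0.86, SE 0.12, adjusted p = 0.0939). It passed when L/L array 3, its lowest L/L array, was left out. Spidr, a scaffold of homologous recombination, had a difference of 0.54 (adjusted p = 0.0959), and the uracil glycosylase gene Ung one of 0.46. Msh6 has been given above.

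Among the 13 cyclins and kinases of G1 and S phase, none passed. Of them 5 were higher (6.33% of all genes) and 1 lower (2.66%) at an unadjusted p under 0.05. Ccne1, which encodes the cyclin E1 partner of Cdk2, was 9.97, 9.94 and 10.12 in wild-type cells and 10.64, 10.48 and 10.61 in L/L (0.57, SE 0.08, adjusted p = 0.0726). Cdk2 itself had a difference of 0.68, the phosphatase gene Cdc25a that activates it 0.43, and Ccne2 0.51. All 4 had groups without overlap. In 6 of the 13 the 3 L/L arrays lay above the 3 wild-type arrays (9.71% of all genes). Of the 6 measured CDK inhibitor genes none passed and 5 had a difference above 0 (55.9% of all genes did). Cdkn2a was 9.50, 9.51 and 9.09 in wild-type cells and 9.82, 9.65 and 9.76 in L/L (0.37), and Cdkn2d had a difference of 0.22, both without overlap. Cdkn2c (0.49) and Cdkn1c (-0.18) overlapped. The probe set of Cdkn2a cannot separate the INK4A and ARF transcripts by its gene symbol.

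Pocket proteins, E2F factors and their partners numbered 19, with a median of 0.16. Of them 6 were higher (6.33% of all genes) and 0 lower (2.66%) at an unadjusted p under 0.05. None passed. Rbl1, the gene of the pocket protein p107 and itself an E2F target, was 7.46, 7.67 and 7.86 in wild-type cells and 8.38, 8.31 and 8.13 in L/L (0.61, adjusted p = 0.166). The E2F dimerisation partner genes Tfdp1 (0.38) and Tfdp2 (0.23) and the activator E2f1 (0.44) followed. E2f1 was 9.02, 9.26 and 9.32 in wild-type cells and 9.46, 9.60 and 9.87 in L/L, without overlap. Without both arrays numbered 1 the list median was 0.05, and without wild-type array 1 alone 0.07.

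**Figure D2:**
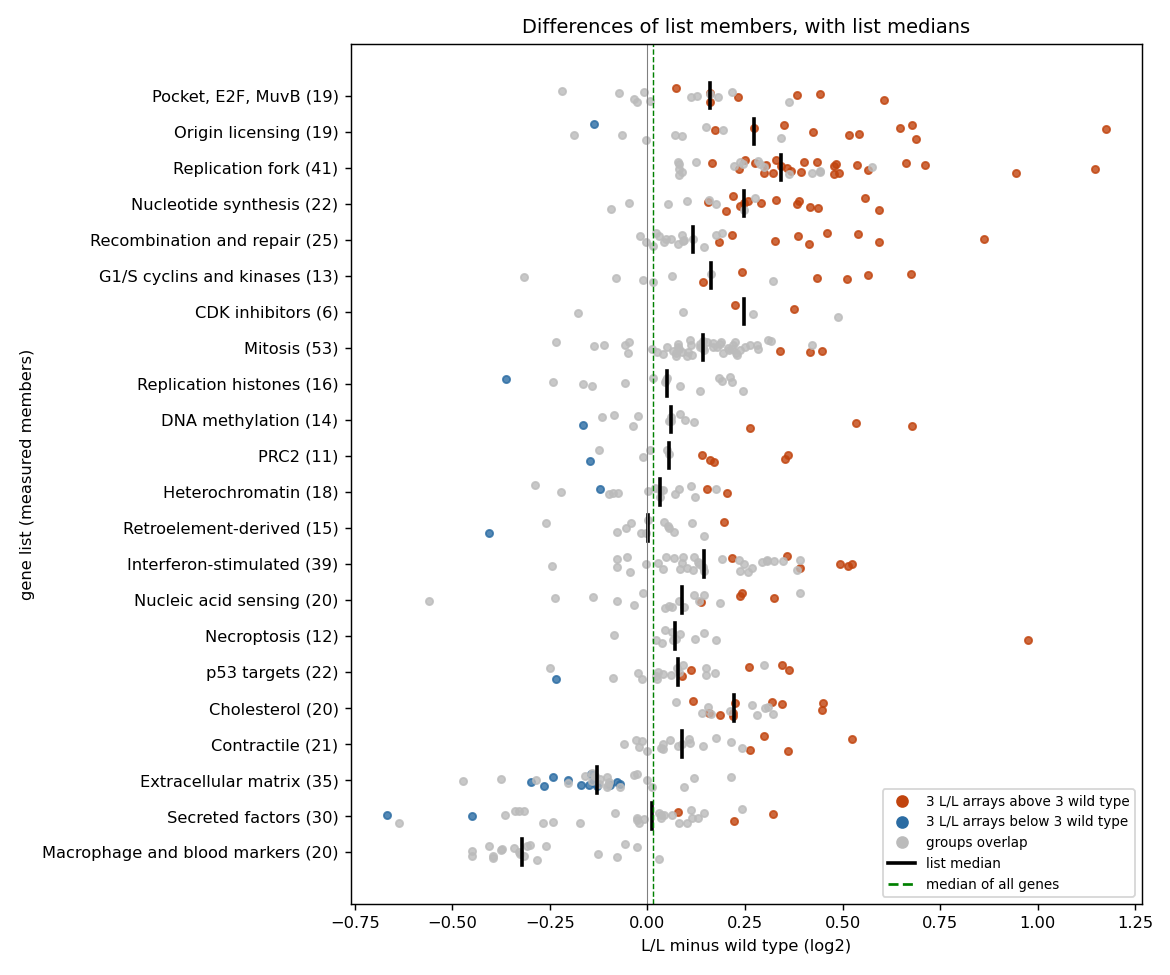
L/L minus wild type (log2, horizontal axis) of each measured member of 22 gene lists; the number of members stands beside each list name. Orange points have 3 L/L arrays above 3 wild-type arrays, blue points have them below, grey points overlap, the black bar is the list median and the dashed line the median of all genes. All 41 replication fork and all 20 cholesterol genes lie above 0, while 30 of 35 extracellular matrix genes lie below 0.

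Mitosis genes had unlike medians in the male and the female arrays; with 1 male array in each group, sex and single arrays cannot be told apart. None of the 53 measured passed, and 47 had a difference above 0 (55.9% of all genes did). At an unadjusted p under 0.05, 4 were higher (6.33% of all genes were). Only 3 had 3 L/L arrays above 3 wild-type arrays (9.71% of all genes did). The median was 0.14 in 6 arrays, 0.48 between the male arrays and 0.00 in the female arrays, where 27 of 53 lay above 0. The list level was -0.30, -0.10 and 0.18 in wild-type arrays 1 to 3 and 0.15, 0.02 and 0.05 in L/L, so the wild-type arrays enclosed the L/L arrays. Cdk1, the kinase that drives mitosis, was 9.60, 9.92 and 10.22 in wild-type cells and 10.34, 10.30 and 10.36 in L/L (0.42, adjusted p = 0.434). The kinesin gene Kif18b had a difference of 0.45, the cyclin gene Ccnf 0.34, and the mitotic kinase gene Melk 0.42. Without wild-type array 3 the median was 0.31, and without wild-type array 1 it was 0.02. Promoters of this list held the CHR word TTTGAA on either strand in 16 of 45 genes (35.6%), against 2440 of 15563 (15.7%) over all measured genes, and CCAAT in 33 of 45 (73.3%), against 6046 of 15563 (38.9%).

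Replication-dependent histone genes, whose messages are made in S phase, had a median of 0.05 over 16 members, with none passing. Their level was -0.25, 0.05 and 0.16 in wild-type arrays 1 to 3 and 0.04, -0.05 and 0.05 in L/L. The median was 0.38 between the male arrays and -0.08 in the female arrays. The linker histone gene H1f2 ran the other way from the replication genes, at 11.12, 11.10 and 10.92 in wild-type cells and 10.68, 10.68 and 10.69 in L/L (-0.36, SE 0.07, adjusted p = 0.179). Members of this family are near-identical in sequence, so probe sets may read several of them.

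**Figure D3:**
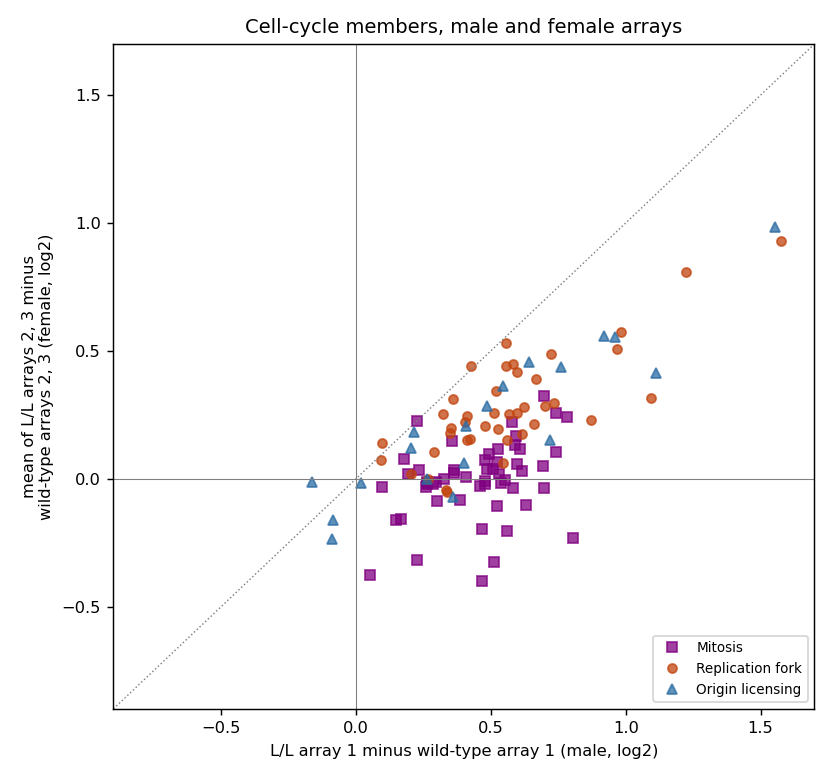
Difference between the male arrays (L/L array 1 minus wild-type array 1, horizontal axis, log2) against the difference between the means of the female arrays (vertical axis, log2) for the members of 3 lists, with a dotted line of equality. Replication fork genes (orange circles, medians 0.55 male and 0.25 female) and licensing genes (blue triangles, 0.41 and 0.18) lie mostly above 0 on both axes, while mitosis genes (purple squares, 0.48 and 0.00) spread around 0 on the vertical axis.

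Chromatin regulators changed in no member at the adjusted threshold. Among 14 genes of DNA methylation, 3 were higher (6.33% of all genes) and 1 lower (2.66%) at an unadjusted p under 0.05. Dnmt1, which copies methylation onto newly made DNA, was 9.21, 9.40 and 9.70 in wild-type cells and 10.17, 10.05 and 10.12 in L/L (0.68, SE 0.12, adjusted p = 0.146). Uhrf1, which guides Dnmt1 to replicated DNA, had a difference of 0.53, the glycosylase gene Mbd4 0.26, and the methylcytosine oxidase gene Tet3 -0.17. For Tet3 each L/L array lay below each wild-type array. Of 11 Polycomb repressive complex 2 genes, 4 were higher at an unadjusted p under 0.05. Eed, which binds methylated histone H3, was 8.80, 8.57 and 8.65 in wild-type cells and 9.07, 9.04 and 8.98 in L/L (0.35, adjusted p = 0.215). The methyltransferase gene Ezh2 had a difference of 0.36, the histone-binding gene Rbbp4 0.16, and the accessory gene Phf19 0.17. Of 18 genes of H3K9 and H4K20 heterochromatin 1 was higher at an unadjusted p under 0.05 (6.33% of all genes were). It was Cbx5, the gene of heterochromatin protein HP1 alpha (0.20). The 13 deacetylase and corepressor genes held 0 at that p in either direction, with a median of 0.03.

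The series title names endogenous retroelements. The 15 measured host genes derived from retroelements had a median of 0.00, with 8 above 0 and 7 below. None passed. Peg10, an imprinted gene of retrotransposon origin, was 9.99, 10.30 and 10.30 in wild-type cells and 9.81, 9.75 and 9.81 in L/L (-0.41, SE 0.09, adjusted p = 0.256). The envelope-derived gene Syna was 6.91, 7.0 and 6.96 in wild-type cells and 7.05, 7.13 and 7.28 in L/L (0.20, adjusted p = 0.499). Named host genes are not a measurement of the repeats themselves.

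Interferon-stimulated genes lay above 0 in most members, without a gene that passed. Of 39 measured, 33 had a difference above 0 (55.9% of all genes did). At an unadjusted p under 0.05, 6 were higher (6.33% of all genes) and 0 lower. In 6 the 3 L/L arrays lay above the 3 wild-type arrays (9.71% of all genes). The median was 0.15. The ubiquitin ligase gene Herc6 was 6.23, 6.18 and 6.05 in wild-type cells and 6.62, 6.78 and 6.53 in L/L (0.49, SE 0.09, adjusted p = 0.146). Tap1, the peptide transporter of antigen presentation, was 8.95, 8.91 and 8.93 in wild-type cells and 9.24, 9.49 and 9.24 in L/L (0.39). Ifi35 (0.51) and the translation inhibitor Ifit2 (0.52) had the next smallest p-values. The list level was -0.38, 0.11 and 0.00 in wild-type cells and -0.23, 0.45 and 0.06 in L/L, so the groups overlapped as a list. The list median was 0.01 without L/L array 2 and 0.02 without wild-type array 1, and was 0.33 without L/L array 1. Macrophage markers, whose cells also express such genes, had list levels of -0.66, 0.03 and 1.05 in wild-type cells and -0.99, 0.34 and 0.23 in L/L, low like the interferon list in both arrays numbered 1. Of these markers 19 of 20 had a difference below 0, none at an unadjusted p under 0.05, with a median of -0.32 that became 0.23 without wild-type array 3 and 0.15 without L/L array 1. Their part in the interferon values was not tested.

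Of 20 sensors of nucleic acid none passed, and 3 were higher at an unadjusted p under 0.05 (6.33% of all genes were). Cgas, the sensor of cytosolic DNA, was 5.46, 5.37 and 5.49 in wild-type cells and 5.67, 5.70 and 5.69 in L/L (0.24), levels close to the 5.17 of the highest Y-linked reading in female cells. Irf3, the transcription factor downstream of such sensors, had 0.24 and the nucleotide phosphohydrolase gene Samhd1 0.33. Mlkl, the executioner of necroptosis, was among the 10 largest positive differences. It was 6.60, 7.15 and 6.98 in wild-type cells and 7.75, 8.19 and 7.71 in L/L (0.98, SE 0.17, adjusted p = 0.146). Its upstream kinase gene Ripk3 was 9.64, 9.32 and 9.38 in wild-type cells and 9.68, 9.75 and 9.44 in L/L (0.17), with overlap. Besides Mlkl, 0 of the 12 necroptosis genes were past an unadjusted p of 0.05 (8.99% of all genes were). Of 7 nuclear body genes Pml alone was.

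Targets of p53 numbered 22, with a median of 0.08 and none passing. Of them 3 were higher (6.33% of all genes) and 1 lower (2.66%) at an unadjusted p under 0.05. The antiproliferative gene Btg2 was 10.28, 10.11 and 9.90 in wild-type cells and 10.49, 10.38 and 10.50 in L/L (0.36). The death receptor gene Fas had a difference of 0.26, Perp, a desmosomal protein, 0.35, and the stress-response gene Sesn1 -0.23.

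The families of the genes that rose were examined next. Among 12 Slc43 and nucleoside or nucleobase transporters, Slc43a3 was the only one that passed. Its paralogue Slc43a1, an amino acid transporter, was 6.98, 7.12 and 7.42 in wild-type cells and 7.55, 7.63 and 7.57 in L/L (0.41, adjusted p = 0.315). The equilibrative nucleoside transporter gene Slc29a1 had 0.38 and the ascorbate transporter gene Slc23a2 -0.21. The other Popeye-domain genes, Popdc2 (0.06) and Popdc3 (0.08), had overlapping groups beside the 0.96 of Bves. Among 12 glycosphingolipid synthesis genes B3galnt1 passed, while the ganglioside synthases St3gal5 (0.28) and B4galnt1 (0.14) did not. Of 20 genes of matriptase biology and epithelia none passed. Spint2, an inhibitor of matriptase, was 7.92, 8.12 and 8.14 in wild-type cells and 8.46, 8.37 and 8.39 in L/L (0.35), and the keratin gene Krt19 had 0.42. The 12 epithelial markers averaged 6.45 to 6.63 in wild-type cells and 6.58 to 6.65 in L/L. Their part in the values of St14, Spint2 and Krt19 was not tested. Among 11 sodium channel genes Scn3b, an auxiliary subunit, was 8.75, 8.54 and 8.53 in wild-type cells and 9.23, 9.26 and 9.81 in L/L (0.83, SE 0.15, adjusted p = 0.166). Scn3b was the 1 member past an unadjusted p of 0.05 (8.99% of all genes were).

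**Figure D4:**
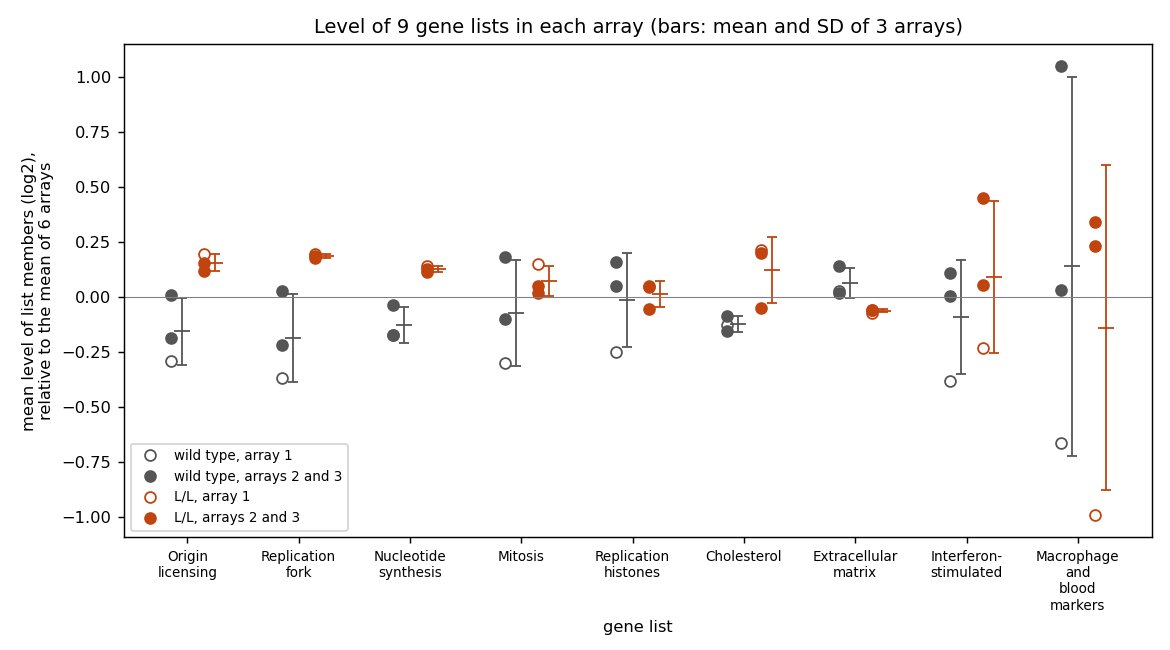
Mean level of the members of 9 gene lists in each array (log2, vertical axis, relative to the mean of 6 arrays); open points are the male arrays and bars are the mean and SD of 3 arrays. Wild type (grey) and L/L (orange) are apart for licensing, fork, nucleotide synthesis, cholesterol and extracellular matrix genes, and overlap for mitosis, histone, interferon-stimulated and macrophage genes.

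Extracellular matrix genes lay mostly below 0. Of 35 measured, 30 had a difference below 0 (44.1% of all genes did). In 13 the 3 L/L arrays lay below the 3 wild-type arrays (5.10% of all genes), and in 0 above. At an unadjusted p under 0.05, 5 were lower (2.66% of all genes) and 0 higher, and none passed. The median was -0.13, and it was -0.13 without both arrays numbered 1 and -0.12 between the male arrays. Col3a1, a fibrillar collagen gene, was 11.29, 11.13 and 11.30 in wild-type cells and 10.98, 10.97 and 10.87 in L/L (-0.30, SE 0.07, adjusted p = 0.291). Col1a2 was 12.76, 12.56 and 12.71 in wild-type cells and 12.44, 12.48 and 12.38 in L/L (-0.24). Col1a1 (-0.17) and the proteoglycan gene Dcn (-0.20) also had groups without overlap. The list level was 0.03, 0.02 and 0.14 in wild-type cells and -0.07, -0.06 and -0.06 in L/L. In the 4 female arrays 23 of 35 genes had both L/L arrays below both wild-type arrays, beside 14.2% of all genes. The 11 fibroblast markers, which share collagens and Dcn with this list, had a median of -0.13. Of them 4 were lower and 0 higher at an unadjusted p under 0.05, and none passed.

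Cholesterol genes lay on the other side. All 20 measured had a difference above 0 (55.9% of all genes did), from 0.07 to 0.45 with a median of 0.22, and none passed. Of them 8 were higher (6.33% of all genes) and 0 lower (2.66%) at an unadjusted p under 0.05. In 10 the 3 L/L arrays lay above the 3 wild-type arrays (9.71% of all genes). Stard4, a sterol carrier, was 8.29, 8.31 and 8.39 in wild-type cells and 8.84, 8.85 and 8.64 in L/L (0.45, SE 0.08, adjusted p = 0.146). Ebp, a sterol isomerase, was 9.06, 9.21 and 9.37 in wild-type cells and 9.63, 9.72 and 9.65 in L/L (0.45). Mvd, an enzyme of the mevalonate pathway, had 0.32. Insig1, which retains the sterol sensor in the endoplasmic reticulum, was 11.13, 11.12 and 11.10 in wild-type cells and 11.61, 11.51 and 11.25 in L/L (0.35). L/L array 3 was the lowest L/L array for Stard4, Mvd and Insig1, and the list level was -0.13, -0.09 and -0.15 in wild type against 0.22, 0.20 and -0.05 in L/L. The median was 0.31 without L/L array 3, 0.35 between the male arrays and 0.18 in the female arrays. All 16 genes of the list with a promoter in the table held CCAAT on either strand in at least 1 promoter. Over all measured genes 6046 of 15563 (38.9%) did.

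**Figure D5:**
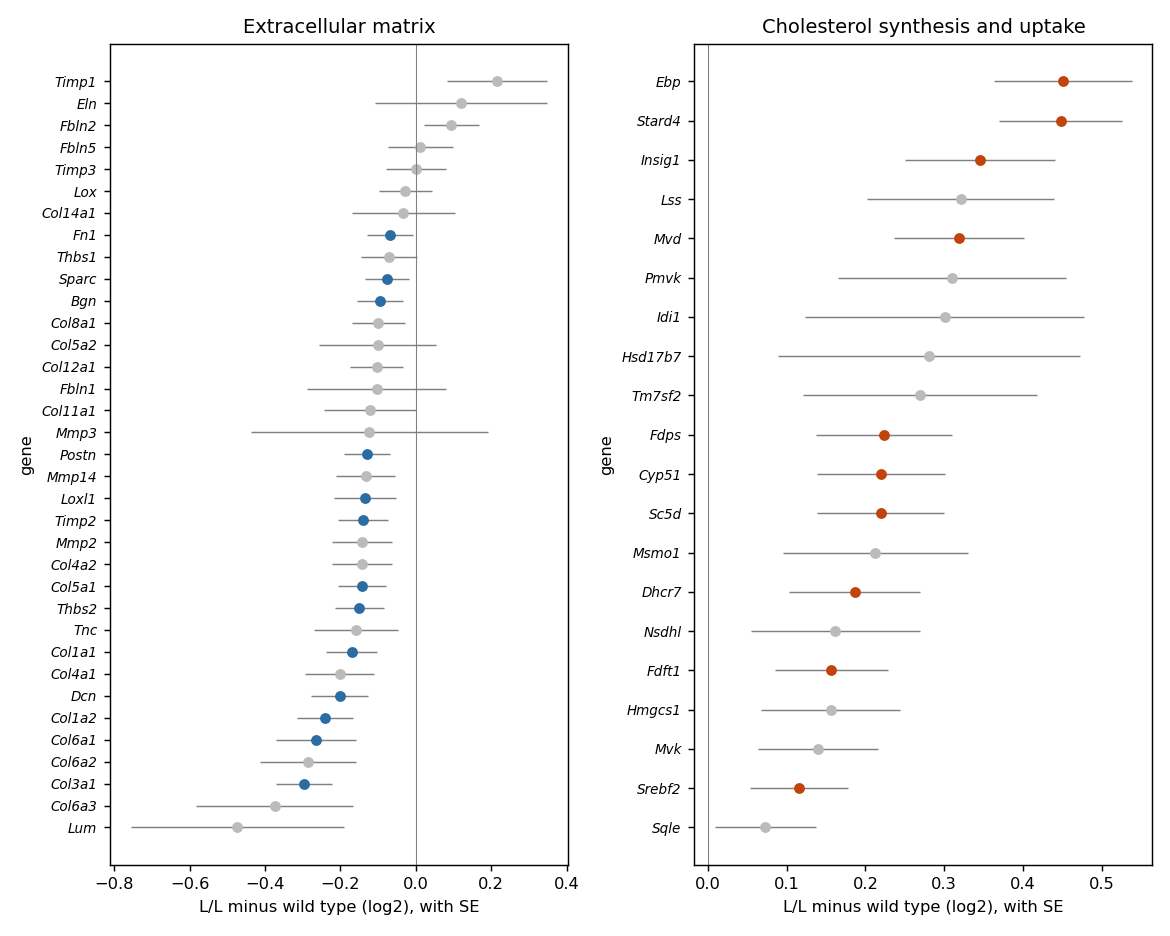
L/L minus wild type (log2, horizontal axis) with its SE for the 35 extracellular matrix genes (left) and the 20 cholesterol genes (right). Blue and orange mark genes whose 3 L/L arrays lie below or above all 3 wild-type arrays, and grey marks overlap; 13 matrix genes are blue and 10 cholesterol genes orange, and none of the 55 passed.

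Contractile and serum-response genes lay mostly above 0. Of 21 contractile genes 16 did (55.9% of all genes), 5 were higher at an unadjusted p under 0.05 (6.33% of all genes) and none passed. Cnn1, a smooth muscle calponin gene, was 10.34, 10.24 and 10.24 in wild-type cells and 11.03, 10.55 and 10.81 in L/L (0.52, adjusted p = 0.239). The myosin kinase gene Mylk (0.30), the tropomyosin gene Tpm2 (0.36) and the matricellular gene Ccn1 (0.26) followed. The contractile median of 0.09 became 0.01 without L/L array 1 and 0.16 without wild-type array 1. Of 25 immediate early genes 23 had a difference above 0 (55.9% of all genes did), with a median of 0.06 and none passing. Their median was 0.10 without wild-type array 3, 0.17 between the male arrays and 0.06 in the female arrays, where 19 of 25 lay above 0. Nr4a1, an orphan nuclear receptor gene, was 7.86, 8.09 and 8.20 in wild-type cells and 8.53, 8.56 and 8.58 in L/L (0.50, adjusted p = 0.161). Fosl1 had 0.41, Fos 0.25 and Srf 0.17.

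Secreted factors were split. Of 30 measured, 15 had a difference above 0 (55.9% of all genes did) and 15 below (44.1%), and none passed. Among them 2 were higher (6.33% of all genes) and 3 lower (2.66%) at an unadjusted p under 0.05. Il33, an alarmin of the interleukin-1 family, was 8.23, 8.21 and 8.64 in wild-type cells and 7.44, 7.84 and 7.80 in L/L (-0.67, SE 0.15, adjusted p = 0.221). Igfbp5, which binds insulin-like growth factors, was 11.37, 11.51 and 11.59 in wild-type cells and 11.07, 10.71 and 11.33 in L/L (-0.45). Lif (0.22) and Ccl20 (0.32) lay above 0.

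Il33 had the largest negative difference among genes with non-overlapping groups and a higher mean of at least 6, and none of the 10 largest passed. Cntn6, a neural adhesion gene (-0.65), Akr1c14, an aldo-keto reductase gene (-0.64), and Bmp2, a bone morphogenetic protein gene (-0.64), came next. Akr1c14 was 7.02, 7.01 and 7.39 in wild-type cells and 6.65, 6.50 and 6.34 in L/L (adjusted p = 0.166). Tnfrsf21, a death receptor gene, had -0.63 and the olfactory receptor gene Olfr1312 -0.63. The secreted protease gene Htra1 (-0.53), the basement membrane gene Frem1 (-0.50), Gm4924 (-0.49) and the membrane proteolipid gene Gpm6b (-0.49) completed this set. On the positive side, Alkal1, a ligand of the ALK receptor (1.07, adjusted p = 0.181), and Crip1 (0.97, adjusted p = 0.363) were the remaining members of the 10 largest. Alkal1 was 5.58, 5.38 and 4.90 in wild type, near the highest levels of Y-linked genes in female cells.

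The neighbours of Rb1 on its chromosome were listed as well. Of the 20 nearest measured genes, 10 on each side, none passed, and the median was 0.05. Among them 2 were higher (6.33% of all genes) and 2 lower (2.66%) at an unadjusted p under 0.05. Gfra2 (0.43) and Med4 (0.16) lay above 0, and Sucla2 (-0.17) and Esd (-0.15) below.

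The L/L difference was then tested against the S/S difference in a limma model of all 12 arrays. The difference of the 2 effects passed for 3 of 19938 genes (0.0150%), with 1 of the 5 L/L genes among them. For Slc43a3 it was 1.42 (adjusted p = 0.000511), with mean levels of 9.68 in the +/+ cells matched to S/S and 9.45 in S/S. Phyhip had 6.99 in those +/+ cells and 7.72 in S/S, against 6.90 and 7.73 in the L set. The difference of its effects was 0.10 (SE 0.17, adjusted p = 0.89). The difference of effects was 1.10 for Dnajc9 (adjusted p = 0.642), 0.86 for Bves (0.078) and 0.75 for B3galnt1 (0.159), and these did not pass. Without +/+ array 1 of the S set, 21 genes passed, Dnajc9, Bves and B3galnt1 among them. Dropping wild-type array 3 matched to L/L gave 7 genes, dropping S/S array 3 gave 5, and quantile normalization gave 7. Dnajc9 was 7.54 in that array and 8.75 and 8.77 in the other wild-type arrays of the S set. When the spread was taken from all 12 arrays, 8 genes passed in L/L (0.0401%), which were Slc43a3, Bves, Phyhip and B3galnt1 with Nsg1, St14, Fam81a and Mcm6, while Dnajc9 had an adjusted p of 0.33.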

How the data were processed

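Per the series' design text and the submitters' processing notes, the authors made RMA values with Partek (version and arrays normalized together not stated). The deposited values are on a log2 scale, as read from their range of 2.43 to 14.67. Their genome build: not given in the sources used here. Of 35556 probe sets 21789 had 1 gene symbol, and for each of 19938 genes the probe set of highest 12-array mean was used. No filter on dim values was applied.

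The 3 L/L and 3 wild-type arrays were fitted alone with limma 3.58.1 in R 4.3.3 (lmFit and eBayes, 4 residual and 4.02 prior degrees of freedom, no covariate). Tests were two-sided with Benjamini-Hochberg adjustment over all genes, and genes with an adjusted p below 0.05 were said to pass. Precision is limited by the number of arrays, and an exact permutation test of 3 against 3 arrays cannot go below 0.1. The procedure was tested on simulated data.

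The 39 gene lists (698 of 760 members measured) and the genes examined were chosen with earlier results of these data known. Lists are described by counts and medians, with no test. Named were Rb1, genes that passed, the 20 of smallest p, the 10 largest rises and falls without overlap and with a higher group mean of at least 6, 4 members per list by smallest p, and genes passing in the other fits. Mcm3, Mcm4, Mcm5, Wdhd1, Syce2, Nmral1 and Nrm were named after their values were seen. Promoter sequences are from RefSeq. Alternatives tried were other sets of arrays, a replicate block, embryo sex, normalization, a floor on dim genes, the choice of probe set and the variance prior.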

Additional observations from a re-analysis of the deposited data

Results flagged for a closer look

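For 3 genes the L/L difference and the S/S difference were themselves different in a limma model of 12 arrays. AI506816, an expressed sequence of unassigned function, had an L/L effect lower than the S/S effect by a difference of -4.92 (adjusted p = 7.04e-07). In the L set it was 4.80 in wild-type cells and 4.58 in L/L, both within the range of Y-linked genes in female cells, and in the S set 5.49 and 10.19. Serpina3n, a secreted protease inhibitor, had a difference of effects of 3.46 (adjusted p = 0.00161), with 8.01 and 8.46 in the L set and 11.50 and 8.49 in the S set. In the L/L set its arrays overlapped, at 7.45, 8.08 and 8.49 in wild-type cells and 7.98, 8.36 and 9.02 in L/L. Slc43a3 had a difference of effects of 1.42 (adjusted p = 0.000511), and it is the 1 of the 3 that passed in L/L alone.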

How the results depend on the processing

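Of 5 genes in L/L, the same 5 passed after quantile normalization, median centring, a mean-variance trend, a floor of 6 on the mean, or picking probe sets over 6 arrays, and 7 passed with embryo sex as a covariate (Nanos1 and Mbnl3 besides the 5). The count was 3 without both arrays numbered 1, 8 with 12 arrays, 2 with 10 arrays (without both arrays numbered 1), 2 with every probe set tested on its own, and 1 to 19 when 1 array was left out. For the 3 genes without arrays 1, a mean-variance trend left 1, and leaving out 1 more array, an alternative added after the data were seen in which the lone array is assumed to vary like the others, gave 5 to 120. The 3 genes of the difference of effects became 7 after quantile normalization and 3 to 21 without 1 array, most of all without +/+ array 1 of the S set (21), wild-type array 3 (7) and S/S array 3 (5). The cause of these changes was not tested. The alternatives gave 621 values for 39 genes. These genes were Rb1, the 20 of smallest p, the 10 largest rises and falls and the genes of the difference of effects. Of the values, 566 kept direction and side of the threshold, 20 no longer passed, 35 newly passed and 0 changed direction. Only the 5 genes that passed could lose a call, so for the rest the same side means not passing. Genes whose groups do not overlap cannot change direction when arrays are left out. The median over all genes was 0.02, and -0.01 after median centring, with 11137 and 9054 genes above 0. List medians near 0 (retroelement-derived, sodium channel, neuronal endosome and secreted genes) changed sign with the centring.

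With a replicate block for the array number, 45 genes passed in L/L (0.226%), 42 higher and 3 lower. With that block 48 passed without arrays 1, and 3 for the difference of effects. Deviations of same-numbered arrays from their group means correlated at 0.60, 0.06 and 0.36. For wild-type arrays 1 and 3 the same number gave the highest correlation with an L/L array. The labels do not say whether the number pairs the arrays, and the main fit used no pairing. Wild-type array 2 correlated best with L/L array 3 (0.13), not with its own number.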

Other observations

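Probe sets outside the gene table were fitted together with the others. Of 12146 without a symbol, 0 passed with limma and 878 (7.23%) had an unadjusted p under 0.05. Of 1621 with several symbols, 0 passed and 73 (4.50%) did. Of 21789 with 1 symbol, 2 passed, those of Slc43a3 and Dnajc9.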
